A study of Mus musculus with 2 samples.

Results

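The genes described are 7 components of the endothelial adherens junction, chosen by name from the 19831 genes in both expression tables. They are Cdh5 (VE-cadherin), the catenin genes Jup (plakoglobin), Ctnnb1 (β-catenin), Ctnna1 (α-catenin) and Ctnnd1 (p120-catenin), the receptor phosphatase gene Ptprb (VE-PTP) and Pecam1 (CD31). All 7 passed the filter of a mean of at least 20 CPM (counts of unique molecular identifiers, UMIs, per 1000000 UMIs of a library), which 5852 genes passed. The cells were tumour endothelial cells of adult C57BL/6 mice, sorted for the surface protein CD31 and profiled by 10x Genomics droplet sequencing of transcript 3′ ends. One library was labelled NF2 KO and the other was its control, with 1 library in each group. Nf2 encodes merlin, a protein at the cell cortex that was first known as a tumour suppressor. The exons removed, the promoter that drove any recombinase, the genotype of the control mice, the tumour type and the number of mice pooled are not given in the sources used here.

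VE-cadherin spans the membrane of endothelial cells and binds VE-cadherin on the neighbouring cell, which holds the vessel wall together and limits its permeability. Inside the cell, β-catenin or plakoglobin binds the end of its tail, α-catenin links that complex to actin, and p120-catenin binds nearer the membrane and protects VE-cadherin from endocytosis. VE-PTP associates with VE-cadherin and keeps it and the receptor TIE2 in a less phosphorylated state, and CD31 is a homophilic adhesion molecule of the same cell border.

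The retained cells, those left after quality filters, removal of doublets and removal of shallow clusters, numbered 2730 in the NF2 KO library and 1307 in the control library. They held 52111207 and 27128913 UMIs in the NF2 KO and control libraries (medians of 17044 and 18122 UMIs in a cell). Each barcode belonged to run 1 or run 2 of its library. What a run was is not stated, and runs are given side by side as parts of 1 library, not as replicates. The 2 libraries shared 1 cell barcode. All 18 endothelial markers checked were found in both libraries and summed to 7369 CPM in NF2 KO and 9214 CPM in control, and 4 of the 18 were lower in NF2 KO. The defining marker Ptprc of leukocytes stood at 1.44 CPM in NF2 KO and 0.774 CPM in control, Epcam of epithelium at 0.0768 and 0.0369 CPM, and Pdgfrb of pericytes at 0.269 and 0.111 CPM. Several whole marker lists differed more: the 8 pericyte markers, with the channel gene Kcnj8 among them, summed to 41.4 CPM in NF2 KO and 169.6 CPM in control, and 2 of the 2 tested were lower. The 12 macrophage or monocyte markers summed to 119.9 CPM in NF2 KO and 87.1 CPM in control, and 2 of the 2 tested were higher. The 7 epithelial or tumour markers summed to 33.4 CPM in NF2 KO and 8.18 CPM in control, with 0 tested. Kcnj8 was among the leading genes of cluster 0 and the epithelial or tumour marker Cldn4 among those of cluster 7, both described further on. How far these sums came from cells of other types, and their part in the results, was not tested. Nf2 itself had 19.9 CPM in NF2 KO and 21.8 CPM in control (ratio 0.915, 0.827 to 1.01), and since 3′ tags can lie outside the removed exons this does not check the labels.

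With 1 library per group no test between conditions was possible and no p-value was computed. A gene was called higher or lower where its ratio of CPM, NF2 KO over control, was at least 1.5 in either direction, its 95% counting interval excluded 1 and its mean was at least 20 CPM. By this rule 2 of the 7 junction genes were lower in NF2 KO, Cdh5 and Jup, and none was higher. Of all 5852 genes, 5.42% were lower and 2.85% higher by the same rule. The same rule applied to run 2 over run 1 called 1.15% of genes within the NF2 KO library and 0.766% within the control library. Of the 7 genes, 6 had a ratio below 1, against 55.9% of all genes tested, and their median log2 ratio was -0.42, against -0.03 over all genes tested. In each of the 7, both NF2 KO runs lay on the same side of both control runs, which was also so for 65.3% of all genes tested. Brackets after a level or a ratio hold its 95% interval, which covers counting error alone.

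**Figure D1:**
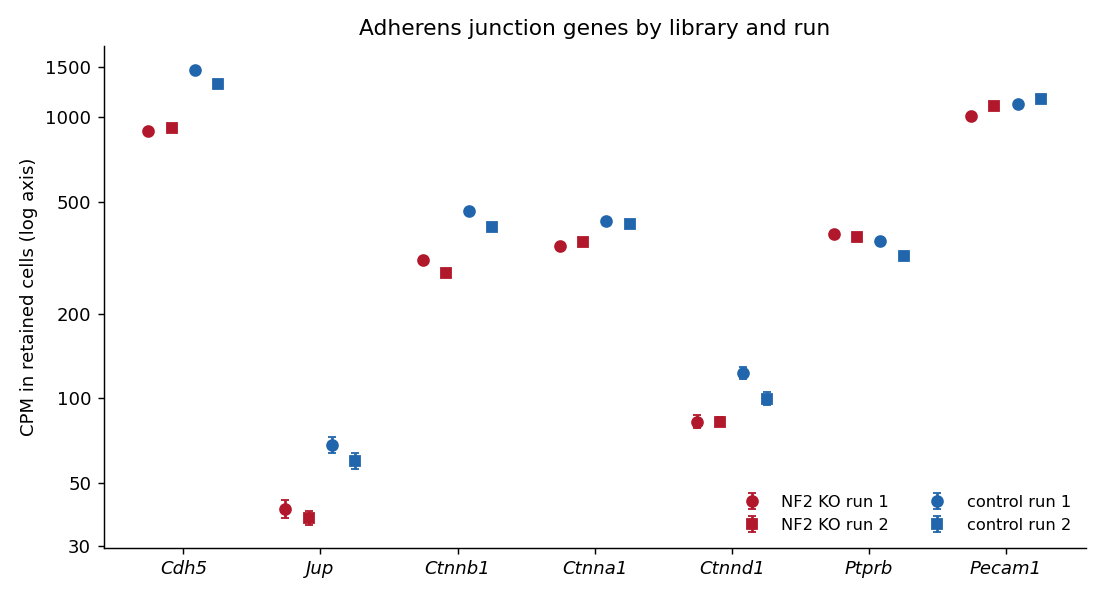
Levels of the 7 adherens junction genes in CPM (log axis), with 1 point per run of the NF2 KO library and of the control library. The NF2 KO runs lie below the control runs for 6 genes, with the widest gaps for Jup, Cdh5 and Ctnnb1, and above them for Ptprb.

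Cdh5, the cadherin of the complex, was among the most abundant transcripts of these cells and was lower in the NF2 KO library. Its level was 892 and 912 CPM in the 2 NF2 KO runs, against 1462 and 1307 CPM in the 2 control runs. Over the whole libraries it was 905 CPM (897 to 913) in NF2 KO, from 47159 UMIs, and 1381 CPM (1367 to 1395) in control, from 37456 UMIs. The ratio was 0.655 (0.647 to 0.664), close to the threshold. Every pairing of an NF2 KO run with a control run gave a ratio between 0.610 and 0.698. Without run 1 of the control library the ratio was 0.692 and no longer passed the size rule, and it missed it under 6 more of the 14 other settings tried, with a ratio below 1 in all 14. Cdh5 (ENSMUSG00000031871.9) lies on chromosome 8, 104101625 to 104144511, plus strand, in the GENCODE annotation of the GRCm38 mouse genome.

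Of the 4 catenin genes, Jup was called lower and the other 3 had ratios below 1 that did not pass the size rule. Jup encodes plakoglobin, which can take the place of β-catenin on the cadherin tail and also sits in desmosomes. It had 40.5 and 37.6 CPM in the NF2 KO runs and 68.3 and 60.0 CPM in the control runs. Its library levels were 38.7 CPM in NF2 KO and 64.0 CPM in control, from 2015 and 1735 UMIs, and the ratio was 0.605 (0.567 to 0.645). The call was lost with cells thinned to 2000 UMIs (0.725) and with the mean of single-cell CPM (0.675), out of 14 other settings.

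Ctnnb1, which encodes β-catenin, the junctional partner of VE-cadherin and effector of Wnt signalling, came nearest to the threshold without passing it. It had 311 and 279 CPM in the NF2 KO runs, against 463 and 405 CPM in the control runs. The ratio was 0.672 (0.656 to 0.688), with 290.4 CPM in NF2 KO and 432 CPM in control. It passed the size rule in 3 of the 14 other settings, among them without run 2 of the control library (0.628) and without run 1 of the NF2 KO library (0.645). Ctnna1, the actin-linking α-catenin, had 348 and 359 CPM in the NF2 KO runs and 427 and 417 CPM in the control runs, a ratio of 0.841 (0.822 to 0.861). Ctnnd1, which encodes p120-catenin, had 82.8 CPM in both NF2 KO runs and 123 and 99.7 CPM in the control runs, a ratio of 0.747 (0.712 to 0.782). The groups of runs did not overlap for any catenin gene, which was also so for 65.3% of all genes tested. Ctnnd1 (ENSMUSG00000034101.14) is on chromosome 2, 84600071 to 84650765, minus strand, and overlaps Gm28635 on the same strand, which was not a row of the tables. The 3 catenins without a call stood between the 1.49-fold lower level of Ctnnb1 and the 1.19-fold lower level of Ctnna1.

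Jup (ENSMUSG00000001552.14) lies on chromosome 11, 100368958 to 100397763, minus strand, and Ctnnb1 (ENSMUSG00000006932.17) on chromosome 9, 120929216 to 120960507, plus strand, both in GRCm38. Ctnnb1 overlaps Ulk4 on the other strand, which had 111 UMIs in NF2 KO and 84 in control. The promoters of Jup and Ctnnb1, the catenin genes with the lowest ratios, are shown to set the 2 genes that share a place on the cadherin tail side by side. Each runs from 250 bases before to 50 bases after a RefSeq transcription start in GRCm38.p6, 5′ to 3′ on the strand of the gene, at chr11:100397741-100398040 (minus strand) for Jup and chr9:120933150-120933449 (plus strand) for Ctnnb1. Capitals mark CCAAT or its complement ATTGG.
Jup promoter: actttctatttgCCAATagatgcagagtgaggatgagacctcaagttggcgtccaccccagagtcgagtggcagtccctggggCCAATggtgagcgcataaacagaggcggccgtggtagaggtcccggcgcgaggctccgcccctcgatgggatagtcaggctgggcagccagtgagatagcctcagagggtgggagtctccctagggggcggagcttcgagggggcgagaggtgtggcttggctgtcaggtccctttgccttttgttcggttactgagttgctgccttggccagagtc
Ctnnb1 promoter: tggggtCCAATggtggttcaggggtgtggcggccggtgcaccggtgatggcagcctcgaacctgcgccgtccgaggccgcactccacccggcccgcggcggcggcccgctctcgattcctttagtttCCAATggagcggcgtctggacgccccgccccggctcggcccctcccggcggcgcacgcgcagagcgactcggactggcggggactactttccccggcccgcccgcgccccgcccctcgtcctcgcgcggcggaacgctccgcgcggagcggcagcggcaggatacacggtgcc
Counted from 1 at the 5′ end of each window, a CCAAT box on either strand began at positions 13 and 84 in the Jup promoter and at positions 7 and 128 in the Ctnnb1 promoter. Of 32851 mouse promoters of the same length in the RefSeq table, 37.4% held at least 1 CCAAT on either strand. Neither window held GGAATG, the core of the TEAD site (14.7% of all promoters), CCGGAA, the core of the ETS site (14.9%), or TATAAA (13.6%), all searched on both strands. GC content was 60.7% for Jup and 75.3% for Ctnnb1. A second Ctnnb1 start, at chr9:120933328-120933627, held TATAAA at position 131 and no CCAAT. The first Ctnnd1 start, at chr2:84658928-84659227, held CCGGAA at position 177 and CCAAT at positions 195 and 219. The second, at chr2:84650691-84650990, held TATAAA at position 95 and CCAAT at positions 159 and 198. These matches describe the letters of the windows and are not binding sites. Of the other genes, Cdh5, Ptprb and Pecam1 are named only.

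Ptprb and Pecam1, the phosphatase and the immunoglobulin-like adhesion molecule that accompany the cadherin, did not pass the size rule. Ptprb (ENSMUSG00000020154.10, chromosome 10, 116275523 to 116389535, plus strand) had 383 and 373 CPM in the NF2 KO runs, against 361 and 321 CPM in the control runs. It was the one gene of the 7 with a ratio above 1, at 1.11 (1.08 to 1.13). The Ptprb ratio was below 1 in 2 of the 14 other settings. With the same cluster weights in both libraries it was 0.825. In only the clusters with at least 50 cells of each library it was 0.937. It was highest, and above 1, without the clusters led by markers of another cell type, which were clusters 1, 7 and 8. These held 128, 741 and 400 NF2 KO cells and 61, 6 and 18 control cells, so mostly NF2 KO cells were taken out. Endothelial markers summed to 7169, 6109 and 8008 CPM in the NF2 KO cells of these clusters. Cluster 0, with 600 control cells and the pericyte marker Kcnj8 among its leading genes, was kept. Why the ratio differed between these settings was not tested. Pecam1 (ENSMUSG00000020717.19, chromosome 11, 106654217 to 106750628, minus strand) encodes the antigen of the sort, so its level bears on which cells entered the libraries. It had 1004 and 1089 CPM in the NF2 KO runs and 1115 and 1156 CPM in the control runs, with a ratio of 0.931 (0.919 to 0.945).

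Set against VE-cadherin within the same library, the partners did not all keep the same proportion. Such ratios of UMI counts do not depend on the scaling of the libraries, and each 3′ tag counts 1 molecule whatever the gene's length, although capture can differ between genes. Per UMI of Cdh5 there were 0.321 UMIs of Ctnnb1 in NF2 KO and 0.313 in control, with overlapping intervals. For Jup the figures were 0.0427 (0.0408 to 0.0447) in NF2 KO and 0.0463 (0.0441 to 0.0486) in control. Over whole libraries these proportions were close, but within clusters they were not always so: in the hypoxia-like cluster described further on, Jup per Cdh5 was 0.0244 (0.0195 to 0.0301) in NF2 KO and 0.0403 (0.0334 to 0.0481) in control. In the capillary-like cluster, Ctnnb1 per Cdh5 was 0.403 in NF2 KO and 0.329 in control, with separate intervals. Ctnna1 per Cdh5 was 0.392 (0.385 to 0.399) in NF2 KO and 0.305 (0.299 to 0.312) in control. Ctnna1 (ENSMUSG00000037815.7) is on chromosome 18, 35118859 to 35254779, plus strand, and overlaps Lrrtm2 on the other strand, which had 45 UMIs in NF2 KO and 30 in control. Ptprb per Cdh5 was 0.416 (0.409 to 0.423) in NF2 KO and 0.247 (0.241 to 0.252) in control, and Pecam1 per Cdh5 was 1.17 and 0.823. Within clusters the gap in Ptprb per Cdh5 varied. It was 0.465 in NF2 KO and 0.253 in control in cluster 9, and 0.432 and 0.275 in cluster 1. The capillary-like cluster had 0.596 and 0.522, and the interferon-like cluster 0.431 and 0.366. In the hypoxia-like cluster it was 0.177 and 0.156, with overlapping intervals. Cluster 0, mostly of control cells, had the lowest control value, with an interval that overlapped that of the hypoxia-like cluster. Over whole libraries the runs did not overlap for Ctnna1, Ptprb or Pecam1 per Cdh5. Ptprb per Cdh5, for example, was 0.429 and 0.409 in the NF2 KO runs and 0.247 and 0.246 in the control runs. Ctnnd1 per Cdh5 was 0.0915 (0.0886 to 0.0944) in NF2 KO and 0.0803 (0.0774 to 0.0833) in control. Its runs, and those of Jup per Cdh5, did not overlap either, whereas those of Ctnnb1 per Cdh5 did. How often this holds for other pairs of genes was not counted. Jup per Ctnnb1, the balance of the 2 catenins that share a binding place, was 0.133 (0.127 to 0.140) in NF2 KO and 0.148 (0.141 to 0.156) in control.

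The difference in Cdh5 was seen across the range of single cells. Scaled to 10000 UMIs per cell, Cdh5 ranged up to 34.6 with a median of 8.59 among NF2 KO cells, and up to 53.4 with a median of 13.4 among control cells. The middle 50% of cells lay between 6.25 and 11.7 in NF2 KO and between 10.1 and 16.7 in control, so the upper bound of that range in NF2 KO lay below the control median. Pecam1 was nearly equal by this measure, with medians of 10.2 in NF2 KO and 10.8 in control. The median of Ptprb was 2.88 in NF2 KO and 2.11 in control, with a highest cell at 38.6 in NF2 KO and 39.4 in control. Jup was sparse, with a median of 0 in NF2 KO and 0.383 in control.

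**Figure D2:**
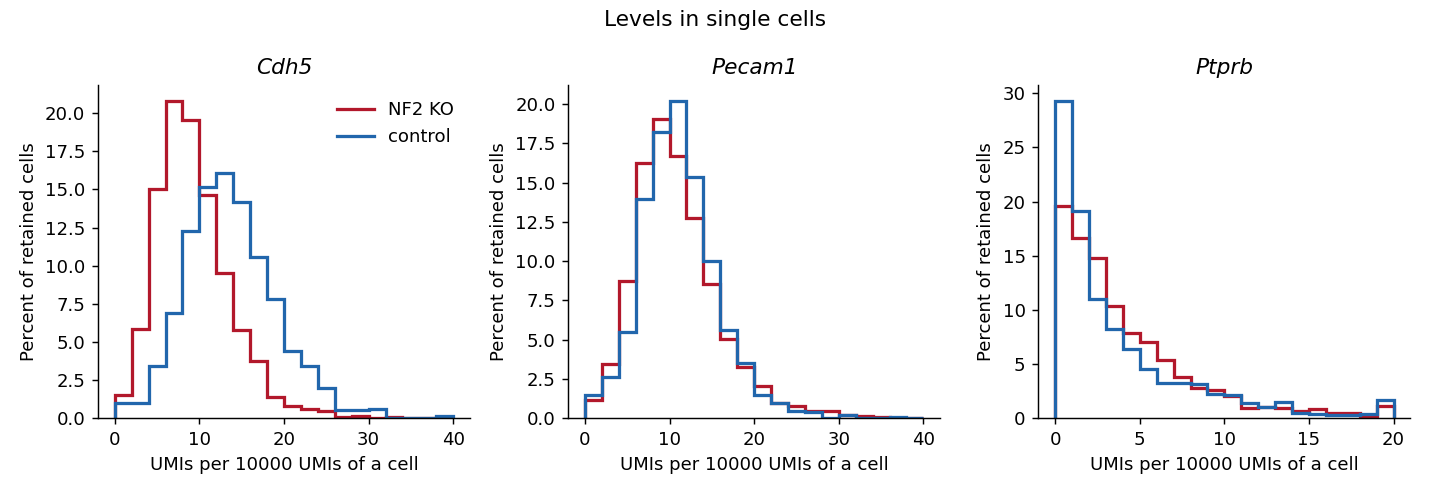
Distribution of UMIs per 10000 UMIs of a cell for Cdh5, Ptprb and Pecam1, as the percent of retained cells of the NF2 KO library and of the control library, with all higher cells in the last bin. For Cdh5 the NF2 KO cells lie to the left of the control cells (medians 8.59 and 13.4), while for Pecam1 the 2 curves nearly coincide (medians 10.2 and 10.8).

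Shares of cells with at least 1 UMI are given as description only. With each cell thinned to 2000 UMIs, 80.8% of NF2 KO cells (79.3 to 82.3) and 91.5% of control cells (89.9 to 93.0) held Cdh5, from 2717 and 1276 cells, with 13 and 31 shallower cells left out. Jup was found in 8.02% of NF2 KO cells and 11.9% of control cells after thinning. Before thinning Cdh5 was found in 99.3% of NF2 KO cells and 99.0% of control cells, and Jup in 37.5% and 56.9%. Control cells of clusters led by neutrophil markers, taken before any cluster was left out, were also counted. The cluster with 530 control cells was then left out as shallow. That with 103 had a median depth of 0.343 of its own sample, just above the cut of 0.333. Together their control cells held Cdh5 in 84.5% and Jup in 8.66% of 277 cells at 2000 UMIs, with a median depth of 3010 UMIs before thinning. The NF2 KO shares were at or below that level, and no difference is read from these shares.

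The cells left out as shallow, 416 in NF2 KO and 1136 in control, gave ratios of the same order for the cadherin and the catenins. In them Cdh5 had 595 CPM in NF2 KO and 953 CPM in control, a ratio of 0.624 (0.580 to 0.671). Jup had a ratio of 0.541 (0.382 to 0.754) and Ctnnb1 one of 0.639 (0.563 to 0.724). Ptprb had a ratio of 1.09 and Pecam1 one of 0.948, both with intervals that took in 1.

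Across endothelial states, defined by clustering the retained cells without the 7 genes, Cdh5 was lower in NF2 KO in each cluster that could be compared, while Ptprb was not. Of the 10 clusters, 5 held at least 50 cells of each library. By their leading genes they were 2 G2/M-like clusters (cluster 1 with Cdc20 and Ccnb2, cluster 9 with Mki67, Top2a and histone genes), a hypoxia-like one (cluster 3, Vegfa and Bnip3), a capillary-like one (cluster 4, Aqp1, Cd300lg and Ednrb) and an interferon-like one (cluster 6, Cxcl10 and Ifit3). S phase markers summed to 1656 CPM in NF2 KO and 1567 CPM in control in cluster 9, and to 671 and 421 CPM in cluster 1. Cluster 9 thus held S phase markers beside those of G2/M. The erythroid transcript Hbb-bs was among the leading genes of cluster 1. The other clusters were mostly of 1 library, so that a library and a kind of cell cannot be told apart in them: cluster 0 (Gal, Kcnj8, Piezo2) with 600 control cells and 16 NF2 KO cells, and cluster 7 (Cldn4, F2rl1) with 741 NF2 KO and 6 control cells. So were cluster 8 (Tagln, Cd36, Lpl) with 400 NF2 KO and 18 control cells and cluster 2 (Odc1, Bgn) with 281 NF2 KO and 31 control cells. Cluster 5 (Igfbp5) held 34 NF2 KO and 18 control cells, too few to compare, and is left out of the orders of levels given here. Cluster 8 also had Apoe among its leading genes, and in its NF2 KO cells macrophage or monocyte markers summed to 451 CPM, neutrophil markers to 299 CPM and smooth muscle markers to 291 CPM, beside 8008 CPM of endothelial markers.

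The hypoxia-like cluster had the lowest ratio for Cdh5 and for each of the catenin genes but Ctnna1. There Cdh5 had 803 CPM in 264 NF2 KO cells and 1347 CPM in 102 control cells, a ratio of 0.596 (0.568 to 0.625). The NF2 KO runs gave 821 and 796 CPM and the control runs 1409 and 1273 CPM. In the other 4 clusters the Cdh5 ratio was 0.633 (interferon-like), 0.663 (cluster 1), 0.676 (capillary-like) and 0.702 (cluster 9), with the last 2 short of the size rule. With single runs left out, a choice made after seeing the data, the call in cluster 1 was lost without run 1 of NF2 KO (0.681), and the capillary-like cluster passed the threshold without run 2 of control (0.585). The control levels were highest in the capillary-like cluster (1504 CPM) and the interferon-like cluster (1489 CPM), whose intervals overlapped, and lowest in the G2/M-like clusters (1213 and 1182 CPM in clusters 9 and 1). The NF2 KO levels were highest in cluster 8 (1039 CPM) and the capillary-like cluster (1017 CPM), whose intervals also overlapped, and lowest in the hypoxia-like cluster (803 CPM) and in cluster 1 (784 CPM). The highest NF2 KO level of any cluster with at least 50 NF2 KO cells lay below the lowest control level.

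**Figure D3:**
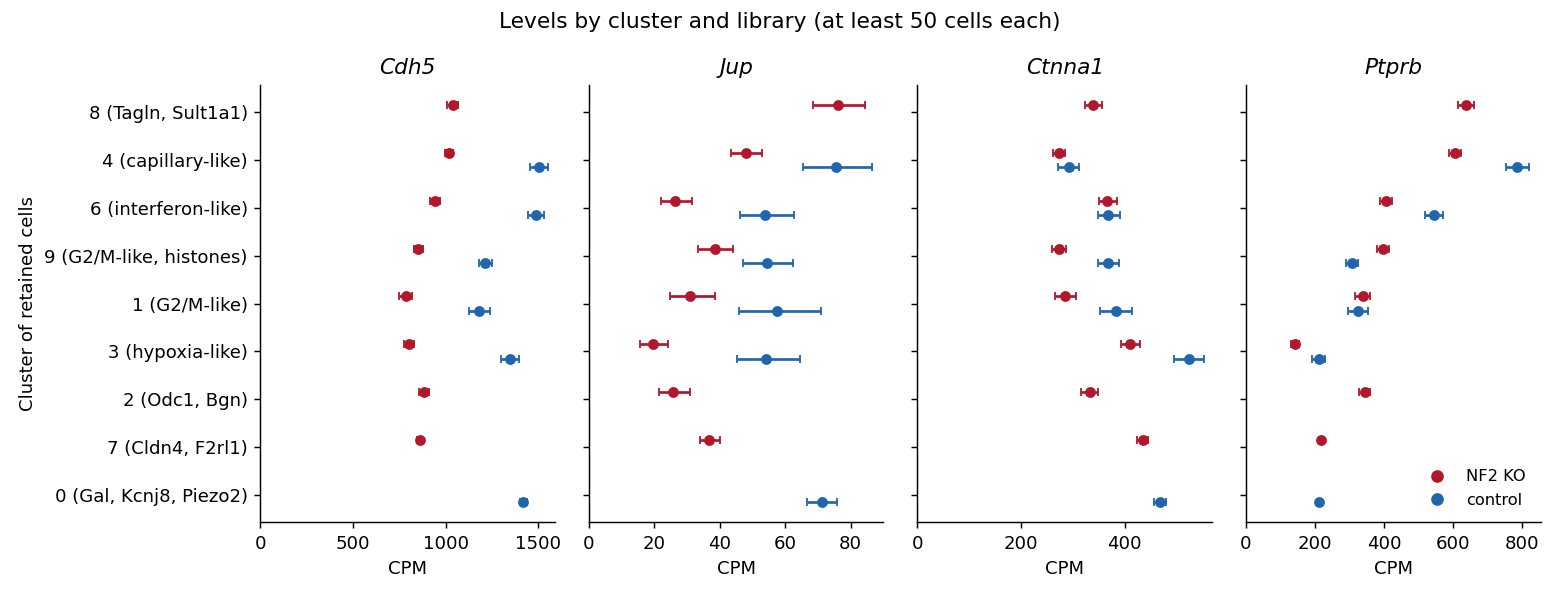
Levels in CPM (with 95% counting intervals) in each cluster of retained cells with at least 50 cells of a library, for the NF2 KO library and the control library. Cdh5 is lower in NF2 KO than in control throughout, whereas Ptprb varies more between clusters than between libraries.

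Jup had its largest difference in the hypoxia-like cluster, with 19.6 CPM in NF2 KO (89 UMIs) and 54.2 CPM in control (126 UMIs), a ratio of 0.361 (0.272 to 0.477). In the interferon-like cluster the ratio was 0.490 (0.387 to 0.621), in cluster 1 it was 0.540 (0.396 to 0.738) and in the capillary-like cluster 0.637 (0.537 to 0.756), all called lower. In cluster 9 it was 0.707 (0.580 to 0.863) and not called. The call in the capillary-like cluster was lost without run 1 of control (0.774) or run 2 of NF2 KO (0.735), that in cluster 1 without run 2 of NF2 KO (0.698), and cluster 9 passed the threshold without run 2 of control (0.584). NF2 KO levels of Jup differed widely between clusters, up to 76.2 CPM in cluster 8, which was above the 71.2 CPM of control cluster 0 with overlapping intervals. At the coarser resolution of 0.4, a cluster of 477 NF2 KO and 54 control cells turned the direction: Jup had 62.5 CPM in NF2 KO (387 UMIs) and 35.2 CPM in control (25 UMIs), a ratio of 1.78 (1.19 to 2.78), in a cluster where 5.27% of genes tested were higher. In cluster 8 the median depth was 10634.5 UMIs per cell, below that of the retained cells of either library.

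Ctnnb1 was called lower in the hypoxia-like cluster alone of these 5, with 194 CPM in NF2 KO and 368 CPM in control (ratio 0.527, 0.479 to 0.579), and its ratio lay between 0.689 and 0.830 in the other 4. Ctnnd1 was called lower in the same cluster (0.657, 0.564 to 0.767), with ratios of 0.700 to 0.776 elsewhere, and lost that call without run 1 of control (0.746) or run 2 of NF2 KO (0.672). It passed the threshold in cluster 1 without run 2 of NF2 KO (0.626) or of control (0.640) and in the interferon-like cluster without run 2 of control (0.637). For Ctnna1 the ratio ran between 0.741 in cluster 9 and 0.995 (0.924 to 1.07) in the interferon-like cluster, with no call. The hypoxia-like cluster therefore had 4 of the 7 genes called lower, where 10.1% of all genes tested in that cluster were lower. Clusters 1 and 6 had 2 each, where 10.2% and 4.92% of genes were lower, cluster 4 had 1 (5.03%) and cluster 9 had 0 (5.11%). These differences between clusters were not tested.

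Ptprb differed in direction between states. Its ratio was above 1 in cluster 9, at 1.29 with an interval above 1 and 397 CPM in NF2 KO and 307 CPM in control, and near 1 in cluster 1, at 1.04 (0.933 to 1.17). It was below 1 in the hypoxia-like (0.677), interferon-like (0.744) and capillary-like (0.772) clusters, and no cluster passed the size rule. In the hypoxia-like cluster the runs overlapped, with 128 and 148 CPM in NF2 KO and 269 and 139 CPM in control, and without run 1 of control the ratio was 1.02. The capillary-like cluster had 606 CPM in NF2 KO and 785 CPM in control, the highest control level among clusters with at least 50 control cells. Among clusters with at least 50 NF2 KO cells, NF2 KO levels were highest in cluster 8 (637 CPM) and lowest in the hypoxia-like cluster (142 CPM), where the control also had its lowest level (210.5 CPM), together with cluster 0 (213 CPM). Pecam1 had ratios between 0.802 and 0.944 in the 5 clusters and its highest NF2 KO level, 1372 CPM, in cluster 8.

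**Figure D4:**
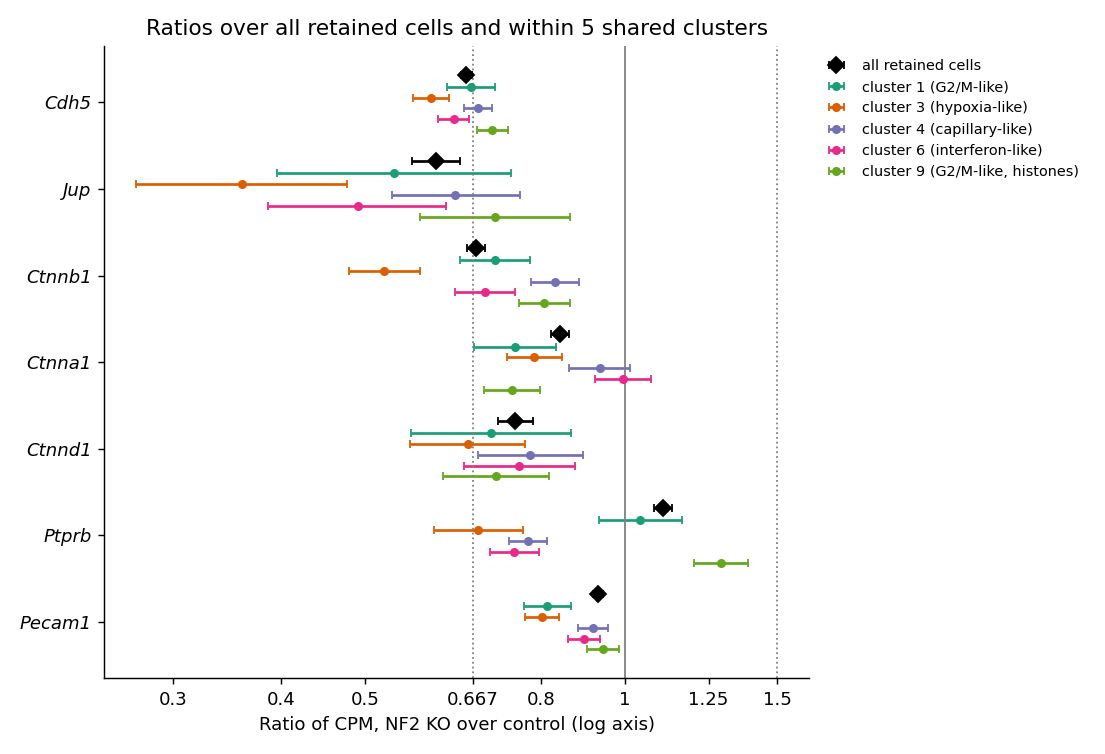
Ratio of CPM, NF2 KO over control (log axis, with 95% counting intervals), for each gene over all retained cells and in the 5 clusters with at least 50 cells of each library. Dotted lines mark a ratio of 1.5 in either direction: Cdh5 and Jup lie below 1 in all 5 clusters, and Ptprb lies between 0.677 and 1.29.

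A wider list of 172 genes of the junction and its regulators gave 169 genes in the tables and 107 above the filter, of which 14 were lower in NF2 KO and 3 higher, with 90 not called. By the same rule 5.42% of all 5852 genes were lower and 2.85% higher. The counts of the single lists given next stand beside these same shares. The median log2 ratio of the 107 was -0.16, against -0.03 over all genes tested. Of the 107, 84 had a ratio below 1, against 55.9% of all genes tested. Of the wider list, Dchs1, Ctnnbip1, Mcam, Ptprm, Ets2, Lmo2, Sox18, Myc and Cldn5 kept their call under all 14 other settings. Those 14 settings left the thresholds of ratio and CPM unchanged, and single genes were not followed under other thresholds.

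Among other cadherins, 3 of 5 were lower, 0 were higher and the median log2 ratio was -0.71. Dchs1, a very large protocadherin of planar polarity, had 29.5 CPM in NF2 KO and 64.0 CPM in control, a ratio of 0.461 (0.430 to 0.494). The vascular protocadherin gene Pcdh12 had 32.8 and 28.4 CPM in the NF2 KO runs and 63.8 and 49.6 CPM in the control runs, a ratio of 0.533. It was called in 12 of the 14 other settings, with 0.694 in only the clusters with 50 or more cells of each library. Pcdh17 had 103 CPM in NF2 KO and 168 CPM in control (0.612). It was called in 11 of the 14 other settings, and its call was lost without run 1 of the control library (0.808). T-cadherin (Cdh13), which is anchored to the membrane without a cytoplasmic tail, was the most abundant uncalled one, with 299 CPM in NF2 KO and 404 CPM in control (0.739). Among other catenins and p120 relatives, 1 of 4 was lower and 0 were higher, with a median of -0.14. The lower one was Ctnnbip1, an inhibitor that keeps β-catenin off TCF factors, with 130 CPM in NF2 KO and 223 CPM in control (0.584, 0.564 to 0.604). The intermediate filament gene Vim, listed with them, had 8286 CPM in NF2 KO and 9924 CPM in control (0.835).

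None of the 3 nectin and afadin genes and none of the 15 actin linkers was called, with median log2 ratios of 0.05 and -0.14. Nectin2, an immunoglobulin-like adhesion molecule, had 223 CPM in NF2 KO and 197 CPM in control (1.13, but 0.989 without the clusters led by markers of another cell type), and moesin (Msn), which ties the membrane to actin, had 711 CPM in NF2 KO and 970.0 CPM in control (0.733). Of the 8 other adhesion molecules of the border, 2 were lower and 0 higher, with a median of -0.21. Mcam (CD146) had 291 CPM in NF2 KO and 541 CPM in control, a ratio of 0.539 (0.527 to 0.551). Endod1 had 114 CPM in NF2 KO and 181 CPM in control (0.632), and lost its call without run 1 of the control library (0.682). It was called in 10 of the 14 other settings, with 0.783 in only the clusters with 50 or more cells of each library. Esam, an endothelial adhesion molecule of tight junctions, had 622 CPM in NF2 KO and 679 CPM in control (0.916).

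Of 15 phosphatases, kinases and ligands that act on VE-cadherin, 2 were lower and 1 was higher, with a median of -0.23. The phosphatase gene Ptprm had 55.3 CPM in NF2 KO and 99.8 CPM in control (0.554). The Src-family kinase gene Fyn had 124 CPM in NF2 KO and 194 CPM in control (0.638, and 0.672 without run 1 of the control library, where it was not called). Fyn was called in 9 of the 14 other settings, and its ratio was 0.750 with cells thinned to 2000 UMIs. Angpt2, the TIE2 ligand that destabilises vessels, was higher, with 986 CPM in NF2 KO and 653 CPM in control, a ratio of 1.51 (1.48 to 1.53) at the edge of the size rule. It was called in 9 of 14 other settings. It lost the call without run 2 of the control library (1.43), without run 1 of the NF2 KO library and in the 5 shared clusters (1.23). The VEGF receptor gene Kdr had 253 CPM in NF2 KO and 373 CPM in control (0.679), and became a call without run 2 of either library (0.625 without that of control, 0.598 without that of NF2 KO).

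Among 22 regulators of junctions by way of Rap1, the CCM proteins and other small GTPases, 1 was lower, 0 were higher and the median was -0.13: Rapgef5, an exchange factor of Rap GTPases, had 105 CPM in NF2 KO and 201 CPM in control (0.521, 0.502 to 0.541). Rapgef5 was called in 12 of the 14 other settings, with 0.700 in only the clusters with 50 or more cells of each library. The small GTPase gene Rhoc had 726 CPM in NF2 KO and 849.7 CPM in control (0.854). Of 4 polarity genes 1 was higher and 0 were lower, with a median of -0.09. That was Amotl2, an angiomotin that joins VE-cadherin to actin and binds YAP, with 80.1 CPM in NF2 KO and 40.5 CPM in control, a ratio of 1.98 (1.85 to 2.11). Amotl2 was called in 13 of the 14 other settings, and not with the same cluster weights in both libraries (1.47). Its relative Amotl1 had 101 CPM in NF2 KO and 125 CPM in control (0.807). Of 10 genes of VE-cadherin traffic, 1 was lower and 0 higher, with a median of -0.18. Adam10, the metalloprotease that sheds the VE-cadherin ectodomain, had 214 CPM in NF2 KO and 334 CPM in control (0.641, and 0.672 without run 1 of the NF2 KO library, where it was not called). Adam10 was called in 11 of the 14 other settings, and its ratio was 0.705 with the same cluster weights in both libraries. The recycling GTPase gene Rab11a was level, with 273 CPM in NF2 KO and 271 CPM in control.

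Of 18 transcriptional regulators tied to Cdh5, 3 were lower and 0 were higher, with a median of -0.37. They were the LIM-domain partner of TAL1, Lmo2, with 67.2 CPM in NF2 KO and 133 CPM in control (0.506), the ETS factor Ets2, with 99.8 CPM in NF2 KO and 196 CPM in control (0.508), and the SOX factor Sox18, with 217 CPM in NF2 KO and 379 CPM in control (0.573). Tcf4, a basic helix-loop-helix factor, had 785 CPM in NF2 KO and 1106 CPM in control (0.710), and passed the rule without run 2 of the control library (0.652). Of 14 β-catenin target genes 3 passed the filter, of which 1 was higher and 0 were lower, with a median of 0.28. Myc had 51.9 CPM in NF2 KO and 32.1 CPM in control (1.62), and Ccnd1, a cyclin of G1, had 547 CPM in NF2 KO and 449 CPM in control (1.22). Of 3 genes held downstream of VE-cadherin, 1 was lower and 0 higher, with a median of -0.24. Claudin-5 (Cldn5), the tight junction strand protein, had 275 CPM in NF2 KO and 1028 CPM in control, the lowest ratio of the wider list at 0.267 (0.262 to 0.273). Foxo1, which represses it, had 86.2 CPM in NF2 KO and 101 CPM in control (0.849), and the sphingosine phosphate receptor gene S1pr1 had 363 CPM in NF2 KO and 408 CPM in control (0.890).

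**Figure D5:**
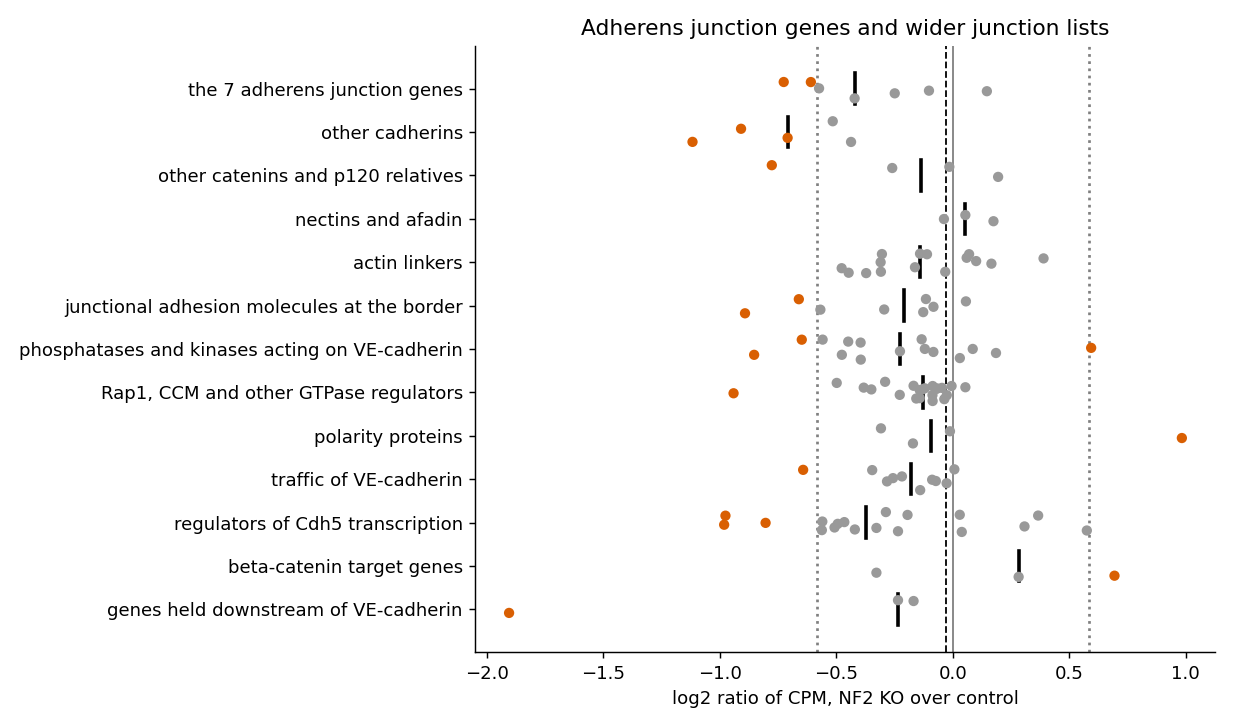
Log2 ratio of CPM, NF2 KO over control, of each gene above the filter in the 7 adherens junction genes and the wider lists, with called genes in orange, the median of each list as a black bar and the median of all genes tested as a dashed line. The lowest point is Cldn5 and the highest Amotl2, and no nectin, afadin or actin linker gene is called.

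Genes whose levels varied most like Cdh5 over the 10 clusters, libraries pooled, were sought among 3126 genes with a mean of at least 50 CPM, by Pearson's r of log2(CPM + 10). For Cdh5 they included Ptk2 (r = 0.917), Mgat4a (0.909), Map4k4 (0.867) and Nav1 (0.867). For Jup they were Nrp1 (0.822), Lyn (0.821), Gatad2b (0.808), Ier5l (0.803) and Qk (0.785). Cdh5 and Jup themselves had r = 0.613 with each other over the same clusters, and Cdh5 and Ptprb 0.0953. The clusters share 2 libraries and are not independent, and most of the names changed within 1 library. None of those named for Cdh5 was among the 5 most alike over the clusters of either library alone, and of the 5 named for Jup 0 were among those of either library.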

How the data were processed

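Single-cell RNA sequencing of CD31+ sorted tumour endothelial cells gave 1 NF2 KO and 1 control library. Per the submitters' processing notes, the tools included Cell Ranger 3.0.0 and Seurat 3.1.1, and the genome build was mm10; settings are not given in the sources used here. The authors deposited natural log values of 1 plus 10000 times the UMI count of a gene over the total of its cell; whole UMI counts were recovered from them (100% whole within 0.01 UMI), where counts had been assumed. Deposited cells (3368 NF2 KO with 58907098 UMIs, 2826 control with 34649992 UMIs) all held at least 501 genes and under 10% mitochondrial UMIs.

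Kept cells had 500 or more genes, 1000 or more UMIs and a mitochondrial share of 10% or less. The automatic doublet threshold marked 0.0302% of NF2 KO and 0% of control cells and had not worked, so the highest-scoring 5% were removed (166 and 129 cells). Clusters with a median depth under 0.333 of that of their own sample and no endothelial marker among 10 leading genes were left out in repeated rounds (416 NF2 KO cells, 13.2%, and 1136 control cells, 46.5%). Clusters came from 30 principal components of 2000 variable genes without the 7 genes, 15 neighbours and the Leiden method at resolution 0.8 (scanpy 1.11.5, Python 3.11.15). CPM have exact Poisson intervals, ratios exact conditional intervals and shares exact Clopper-Pearson intervals (scipy 1.17.1). Only the calling rule and its ratio intervals were tested on simulated counts, drawn from the summed control profile with counting error alone.

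All 7 genes are named, with every called gene of the wider lists, the uncalled gene of highest CPM in each list, and the 5 genes most like Cdh5 and Jup over clusters (1 of them is not reported here); Foxo1 was named after its values were seen. The genes, lists, markers, rules and most alternatives were chosen with earlier results of these data known. Alternatives covered cells used, doublets, runs, depth, scaling, composition, thresholds and resolution.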

Additional observations from a re-analysis of the deposited data

Results flagged for a closer look

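The ratio of Ptprb, NF2 KO over control, lay on different sides of 1 in clusters of the same retained cells. In clusters 9, 4 and 6 both NF2 KO runs lay on one side of both control runs. Over whole libraries this was so for 65.3% of all genes tested, and the share within clusters was not counted. In cluster 9, a G2/M-like cluster with histone genes and S phase markers, it was 1.29, with 397 CPM in NF2 KO and 307 CPM in control. In cluster 4, the capillary-like one, it was 0.772, and in cluster 6, the interferon-like one, it was 0.744. In the hypoxia-like cluster it was 0.677 and in cluster 1 it was 1.04, and the runs overlapped in both. The difference between these clusters was not tested.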

How the results depend on the processing

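Of 14 other settings with the thresholds unchanged, 12 planned ones and 2 chosen after seeing the data, Cdh5 kept a ratio below 1 in all (0.619 to 0.692). Jup did likewise (0.528 to 0.725). The count of the 7 genes called lower, 2 as reported, was 1 with shallow clusters kept, with cells gated one by one, with cells thinned to 2000 UMIs, with the median ratio set to 1 and in only the clusters with 50 or more cells of each library. It was 0 with the mean of single-cell CPM and 1 to 3 when each run was left out in turn, the 1 being without run 1 of the control library and the 3 without run 2 of control or run 1 of NF2 KO. At the looser ratio threshold tried it was 4 and at a ratio of 2 it was 0. The wider list, 14 lower and 3 higher as reported, gave 8 and 1 with the same cluster weights in both libraries, 36 and 6 at the looser ratio, 2 and 0 at a ratio of 2, 7 higher at 5 CPM and 9 lower in only the shared clusters. Over all genes, 317 lower and 167 higher as reported, there were 769 and 389 at the looser ratio, 93 and 57 at a ratio of 2, 523 and 370 at 5 CPM and 178 and 79 at 50 CPM. The higher count was 108 with the same cluster weights and 111 in only the shared clusters. Fewer genes pass a stricter rule by construction, and otherwise the cause was not tested. Jup in clusters turned to 1.78 at resolution 0.4 and stayed between 0.516 and 0.724 at 1.2. No paired analysis was possible because each group is 1 library. Depth limits Jup in clusters, with 84 UMIs at the fewest in a compared cluster as reported and 25 at resolution 0.4.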
